A study of Homo sapiens with 13 samples.

Results

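DNA replication and S phase genes were followed in DLD-1 cells, an established human colon tumour line, after knockdown of SOX9 or of Y14. The set comprised 52 genes chosen by symbol for their known roles, from the licensing of replication origins to the assembly of chromatin behind the fork. All 52 were found among the 23871 symbols shared by both deposited comparison tables, and all 52 had a mean normalised read count of at least 10 in both. Every cell received 50 nM of small interfering RNA (siRNA) and was harvested 72 h later. The samples numbered 13. Experiments 1 and 2 gave 3 control samples, which received a control siRNA (siCtrl), beside 4 in which SOX9, a transcription factor of the intestinal crypt, was knocked down (siSOX9). Experiment 1 held 2 of these siCtrl and 3 of these siSOX9 samples, and experiment 2 held 1 of each. Experiment 3 gave 2 siCtrl samples and 4 samples with siRNAs against Y14 (siY14), a protein of the exon junction complexes that splicing leaves on mRNA. The siY14 arm pooled 2 samples of siRNA 9 with 2 samples of siRNA 10. All groups were transfected cells of a single line, and the sources used here named no untransfected group. Whether samples of a group were separate cultures was not stated, so the p-values cover only how far these samples differ, and that can be technical.

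Replication starts at origins that the origin recognition complex marks, and on which CDC6 and CDT1 load the MCM2 to MCM7 helicase. CDC45, GINS and MCM10 switch the helicase on at the start of S phase, and polymerases alpha, delta and epsilon then copy the DNA with the PCNA clamp and its RFC loader. The E2F transcription factors and cyclin E drive entry into S phase, and many replication genes carry E2F sites in their promoters. In colon crypts these genes mark the dividing cells, and in a growing tumour line most of them are active.

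Promoters are shown for 6 of the genes whose transcript levels passed a test described further on, to let their E2F-type sequences be compared. The letters searched were TTTCCCGC, TTTCGCGC, TTTGCCGC and TTTGGCGC on both strands. No motif is part of another. RefSeq promoters (250 bases before to 50 after the start, GRCh38.p14) were at hand for 45 of the 52 genes. Of their 61 starts, 25 (41%) held at least 1 of the motifs, against 1164 of 35116 starts of all genes (3.31%). Each line gives the 120 bases just before the start, read 5′ to 3′ along the gene, with the motif in capitals.
E2F1, chr20:33686386-33686505, minus strand: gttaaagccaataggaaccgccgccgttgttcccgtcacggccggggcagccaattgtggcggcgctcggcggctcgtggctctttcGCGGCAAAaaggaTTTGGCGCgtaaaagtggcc
E2F2, chr1:23531234-23531353, minus strand: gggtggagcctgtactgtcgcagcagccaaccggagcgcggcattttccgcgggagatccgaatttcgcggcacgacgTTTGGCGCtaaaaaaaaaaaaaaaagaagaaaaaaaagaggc
CDT1, chr16:88803669-88803788, plus strand: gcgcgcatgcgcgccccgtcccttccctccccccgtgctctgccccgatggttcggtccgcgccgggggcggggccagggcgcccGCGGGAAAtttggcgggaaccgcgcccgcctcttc
POLA2, chr11:65261842-65261961, plus strand: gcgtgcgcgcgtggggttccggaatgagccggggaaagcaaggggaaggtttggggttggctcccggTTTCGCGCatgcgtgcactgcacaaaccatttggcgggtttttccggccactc
POLD1, chr19:50384203-50384322, plus strand: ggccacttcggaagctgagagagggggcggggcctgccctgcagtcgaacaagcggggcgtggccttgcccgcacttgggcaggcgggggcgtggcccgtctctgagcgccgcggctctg
RRM2, chr2:10122619-10122738, plus strand: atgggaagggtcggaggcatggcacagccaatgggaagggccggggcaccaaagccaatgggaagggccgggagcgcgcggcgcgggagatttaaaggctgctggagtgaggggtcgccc
E2F1 held the motif at 33 and at 20 bases before its start, CDT1 at 35, E2F2 at 42 and POLA2 at 53, counted to the motif's first base. The letters were not in these windows of POLD1 and RRM2, each the first of 2 listed starts. Among the 8 genes that passed the test after Y14 knockdown, 4 held the motif (50%), and among the other 37 with a promoter 20 did (54.1%). A match is a description of letters and no evidence of binding.

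The deposited values were, for each gene, a mean normalised read count per arm, a fold change and a DESeq p-value adjusted over all genes with reads. A gene passed where that adjusted p was under 0.05. Reads per library were worked back from the digits of the arm means. They came out for all 52 genes in both siCtrl arms, for 31 in the siSOX9 arm and for 38 in the siY14 arm. Missed were the most abundant transcripts and, in the siSOX9 arm, DUT at a mean of 3125. Libraries have no sample name in the recovered reads and are lettered by depth, from a downwards. The libraries behind the siSOX9 comparison held an estimated 24.8 to 184 M counts, and those behind the siY14 comparison 49.5 to 71.6 M. SOX9 itself fell from a mean of 24468 to 9067 in the authors' deposited table (log2 ratio −1.43, adjusted p = 0.00014). RBM8A, the Y14 gene, is listed at 0 in both tables, so the second knockdown cannot be checked on its own transcript. Colon epithelial genes were present (EPCAM had siCtrl means of 30894 beside siSOX9 and 51818 beside siY14), while CDX1 stood at 2.83 and 0.637. Of 12 measured colon epithelial markers, 5 were lower after Y14 knockdown and 0 higher in the authors' deposited table (KRT20 at a log2 ratio of −2.12, LGALS4 at −1.75, CDH1 at −1.21, CDH17 at −0.67 and VIL1 at −0.57), with a median of −0.54. Lower calls were 41.7% of these markers, against 5.35% of all genes with reads. KRT20 and LGALS4 had low siCtrl means beside siY14, 95.3 and 112. After SOX9 knockdown KRT20 was higher (1.15), and VIL1 (−1.19) and CEACAM5 (−2.02) were lower, with a median of −0.19. CEACAM5 went from a mean of 54.9 to 13.5, and KRT20 from 96.8 to 215. The shares were 8.33% higher and 16.7% lower, against 1.19% and 2.27% of all genes with reads. These markers moved in the same samples as the replication genes, and their part in the results was not tested. The 10 immune, 9 fibroblast and 6 endothelial markers summed to between 26 and 196 per arm, with NKG7, MS4A1 and LUM at 0 in both tables. Of these, COL1A1 passed as higher (34.1 to 82.6) and PDGFRB as lower (103 to 55.8) after SOX9 knockdown in the authors' deposited table.

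The libraries of the siY14 table formed 3 pairs. For genes with 200 to 1000 reads in a pair, siY14 libraries a and c differed by 0.998 times the variance that counting alone gives, b and d by 1.15 times, and both siCtrl libraries by 0.979 times. The other siY14 combinations gave 14.7 to 16.1 times. Above 3000 reads the 3 pairs gave 1.38 to 2.03 times and the others 94.2 to 122 times. Each pair was therefore counted as 1 sample, which leaves 2 siY14 samples (a with c, and b with d) and 1 siCtrl sample. The sources used here do not tell which of the siRNAs belongs to which pair. In the siSOX9 table the deepest library of each arm stood apart from the rest: siCtrl a differed from b and c by 4.9 to 7.15 times the counting variance, and b from c by 2.32 times.

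After SOX9 knockdown 1 of the 52 genes passed the authors' test and 51 did not. That gene was RRM2, and it was higher. In RNA from whole cultures, a changed share of cells in S phase and a changed amount of RNA per cell cannot be told apart. This is 1.92% of the members, against 3.47% of the 18747 genes with reads (1.19% higher and 2.27% lower) and 3.73% of the 8048 genes with a mean of at least 1000. All members lie above a mean of 1000. The log2 ratios of the 52 genes ran from −0.30 to 0.68, with a median of 0.03 and an SD of 0.17 across genes. The genes with a mean of at least 1000 had a median of 0.01 and an SD of 0.26. Of the members 9.62% were 0.25 or more from 0 on the log2 scale, compared with 24% of those genes. By these arm means, to which no test was applied, the members spread less about 0 than other genes of like abundance.

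After Y14 knockdown 8 genes passed the authors' test, 5 higher and 3 lower. E2F1, E2F2, CDT1, POLD1 and TK1 were higher, and POLA2, CHAF1B and RFC1 were lower. These are 15.4% of the members, against 9.16% of the 17706 genes with reads (3.81% higher and 5.35% lower) and 13.2% of the 8106 genes with a mean of at least 1000. That share is near the background of genes of like abundance. The log2 ratios ran from −0.65 to 1.22, with a median of 0.05 and an SD of 0.37, and the abundant genes had a median of −0.03 and an SD of 0.39. Within the set 29 genes lay above 0 and 23 below, in each of the tables.

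**Figure D1:**
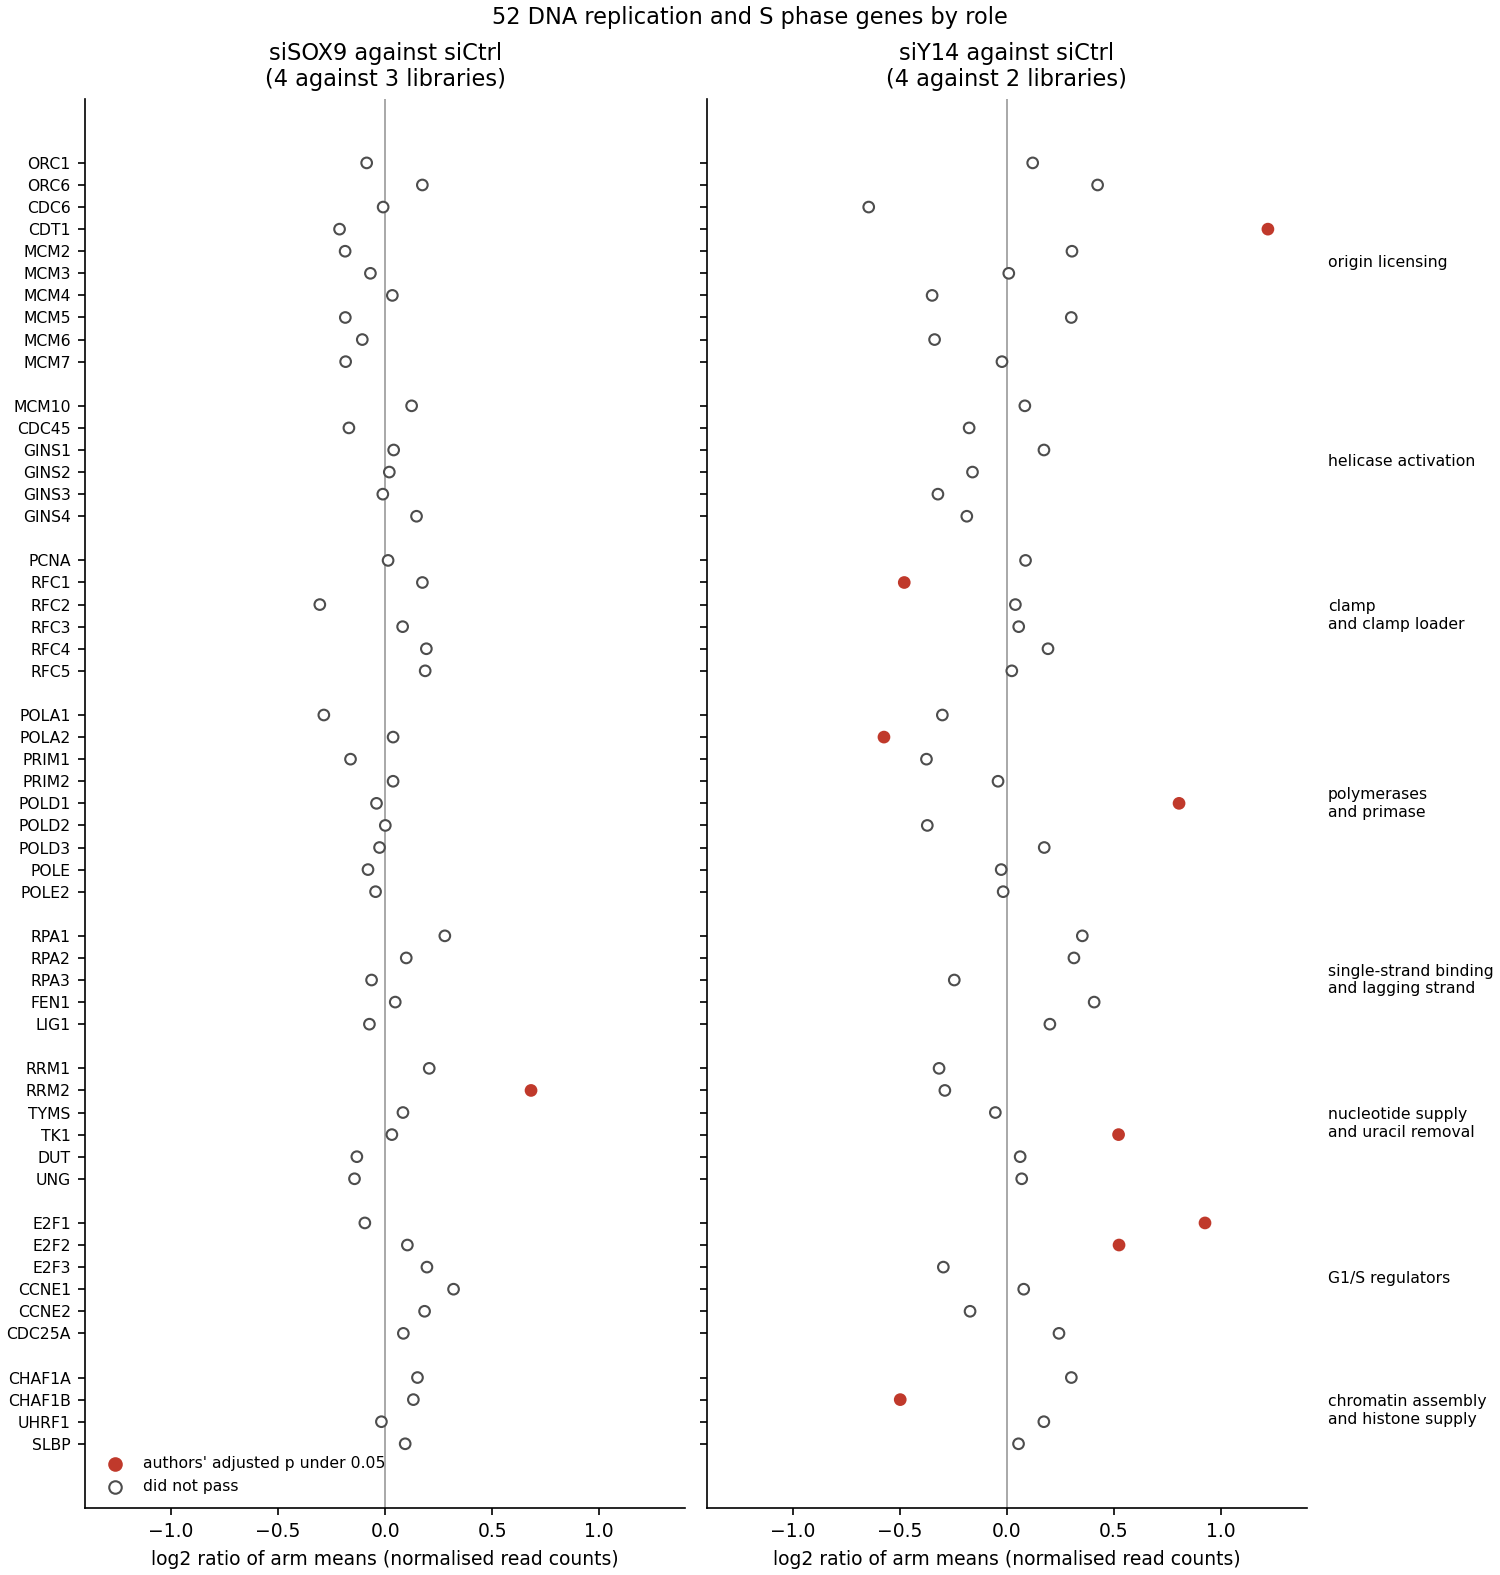
Log2 ratio of the knockdown to the siCtrl arm mean (x axis, normalised read counts) for the 52 genes, grouped by role, with siSOX9 on the left and siY14 on the right. Filled red points passed the authors' adjusted p, 1 on the left (RRM2) and 8 on the right, and points on the right spread more widely about 0.

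The authors' test for Y14 took 4 and 2 libraries as separate samples. When the near-identical libraries were summed, limma-voom on the recovered reads called 0 of 12764 genes (0.00%), with 1182 at an unadjusted p under 0.05. Among the 38 recovered members it called 0, with 4 at an unadjusted p under 0.05 (CDT1, E2F1, POLD1 and CDC6). With the libraries taken as 6 samples, limma-voom called 11 members higher and 3 lower of 38 (36.8%), against 25.9% of 12098 genes. Leaving out siCtrl library a or b, which leaves 1 siCtrl library, took that count from 14 to 0 and the calls over all genes to 1 of 12098 in each case. A fit of 2 samples against 1 that calls no gene says nothing particular about the members. Their log2 ratios in it stayed close to the deposited ones, and values are given per pair so that the size of each difference can be seen.

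G1/S regulators held the strongest call after Y14 knockdown. E2F1 is a transcription factor that switches on S phase genes. Its siCtrl libraries stood at 2029 and 2107 normalised counts, siY14 a and c at 3476 and 3494, and b and d at 4357 and 4380. All 4 siY14 libraries were above both siCtrl libraries, and the pairs were themselves apart. The siY14 mean was 3926 ± 625 (SD, n = 2 pairs). In the authors' deposited table its log2 ratio was 0.93 (adjusted p = 5.49e-05), and after summing the pairs limma gave 0.92 (SE 0.28, adjusted p = 0.491).

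E2F2, a close relative with a like role, showed the same order. Its siCtrl libraries had 1579 and 1617 counts, siY14 a and c 2028 and 2075, and b and d 2535 and 2554. The authors' deposited table gives a log2 ratio of 0.52 (adjusted p = 0.0422), and the summed limma fit, in which no gene passed, gave the same ratio of 0.52 (SE 0.30, adjusted p = 0.605). E2F3, the other activator of the family, had 4630 and 4882 in siCtrl against 3340 to 4386 in siY14, below siCtrl in every library. It did not pass (log2 ratio −0.30 in the authors' deposited table, adjusted p = 0.32).

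CCNE1 and CCNE2 encode cyclin E, which activates CDK2 at the G1/S boundary, and neither passed. The pairs went opposite ways for CCNE2: a and c held 2035 and 1951 counts, b and d 987 and 903, with siCtrl between them at 1718 and 1592. CDC25A, the phosphatase that frees CDK2, was at 5960 and 5816 in siCtrl and at 6880 to 7091 in siY14, where the authors' adjusted p was 0.458.

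Among licensing factors CDT1, which brings the MCM helicase to origins, had the largest ratio of the 52 genes after Y14 knockdown. The siCtrl libraries held 1164 and 1203 normalised counts. Libraries a and c of siY14 held 2180 and 2194, and b and d held 3309 and 3340. No siY14 library came near the siCtrl level, and the b and d pair was 1.52-fold above a and c. The mean was 2756 ± 805 (SD, n = 2 pairs), and the authors' deposited table gives a log2 ratio of 1.22 (adjusted p = 0.0111). With the pairs summed, the limma adjusted p was 0.491 at a log2 ratio of 1.19 (SE 0.33).

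CDC6, the partner of CDT1 in loading, went the other way without passing. Its siCtrl libraries were at 10877 and 10861, siY14 a and c at 8643 and 8576, and b and d at 5278 and 5298. In the authors' deposited table its log2 ratio was −0.65 (adjusted p = 0.0817). ORC6, a subunit of the origin recognition complex, was at 3208 and 3028 in siCtrl and at 4055 to 4320 in siY14 (authors' adjusted p = 0.117). ORC1, the large ATP-binding subunit, was at 6074 and 6256 in siCtrl and at 6496 to 6956 in siY14. Of the 6 MCM helicase subunits, MCM2 and MCM5 had log2 ratios of 0.30 and 0.30, MCM4 and MCM6 of −0.35 and −0.34, and MCM3 and MCM7 of 0.01 and −0.02. None of the 6 passed in the authors' deposited table, and the siY14 reads of these genes were not recovered.

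Polymerase subunits moved in both directions after Y14 knockdown. POLD1, the catalytic subunit of polymerase delta, had 1909 and 1978 counts in siCtrl. It had 3135 and 3198 in siY14 a and c, and 3575 and 3664 in b and d. The groups were well apart, with a mean of 3393 ± 320 (SD, n = 2 pairs) in siY14. Its log2 ratio in the authors' deposited table was 0.80 (adjusted p = 0.000653), and the summed limma fit gave 0.80 (SE 0.28, adjusted p = 0.491). The other delta subunits did not follow it: POLD2 had a deposited log2 ratio of −0.37 and POLD3 of 0.17, and neither passed.

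POLA2, the accessory subunit of polymerase alpha, was lower. It stood at 3976 and 4031 in siCtrl, at 3095 and 3099 in siY14 a and c, and at 2328 and 2234 in b and d. Every siY14 library lay below siCtrl (2689 ± 577, SD, n = 2 pairs). The authors' deposited table gives a log2 ratio of −0.57 (adjusted p = 0.0158), and the summed limma fit gave −0.59 (SE 0.28, adjusted p = 0.54). The catalytic subunit POLA1 and the primase PRIM1, which start each new strand with POLA2, had deposited log2 ratios of −0.30 and −0.38 without passing. PRIM2 was at −0.04, and the leading strand polymerase genes POLE and POLE2 were at −0.03 and −0.02.

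RFC1, the large subunit of the clamp loader, was the lowest of its group after Y14 knockdown. Its siCtrl libraries had 9571 and 9471 counts, siY14 a and c 7073 and 7043, and b and d 6733 and 6469. Here both pairs lay close together, at 1.07-fold. The deposited log2 ratio was −0.48 (authors' adjusted p = 0.0475), and with the pairs summed limma gave −0.48 as well (SE 0.24, adjusted p = 0.558). RFC2, RFC3, RFC4, RFC5 and the clamp PCNA had deposited log2 ratios between 0.02 and 0.19, and none passed.

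CHAF1B, a subunit of the histone chaperone CAF-1, was lower as well. It was at 4590 and 4840 in siCtrl, at 3696 and 3786 in siY14 a and c, and at 3011 and 2860 in b and d. The mean of 3338 ± 570 (SD, n = 2 pairs) came with a deposited log2 ratio of −0.50 (authors' adjusted p = 0.0439), and the summed limma fit gave −0.50 (SE 0.27, adjusted p = 0.582). Its partner CHAF1A had 4923 and 4664 in siCtrl and 5709 to 6097 in siY14, all above siCtrl, without passing (deposited log2 ratio 0.30, authors' adjusted p = 0.329). UHRF1, which reads hemimethylated DNA behind the fork, had 4364 and 4326 in siCtrl, 5630 and 5683 in a and c, and 4148 and 4127 in b and d. SLBP, which binds the stem loop of histone mRNAs, had a deposited log2 ratio of 0.05.

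TK1, the thymidine kinase that salvages thymidine for DNA, rose from an arm mean of 8858 to 12715 in the authors' deposited table (log2 ratio 0.52, adjusted p = 0.0383). The siCtrl libraries were at 8879 and 8838, and the siY14 reads of TK1 were not recovered, so no spread can be given. RRM1 and RRM2, the subunits of ribonucleotide reductase, had log2 ratios of −0.32 and −0.29 there without passing, and TYMS and DUT stood at −0.05 and 0.06. FEN1, the flap endonuclease of the lagging strand, and RPA1, of the single-strand binding complex, had 0.41 and 0.35 and did not pass (authors' adjusted p = 0.127 and 0.203). RPA2 was at 0.31, LIG1 at 0.20 and RPA3 at −0.25.

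**Figure D2:**
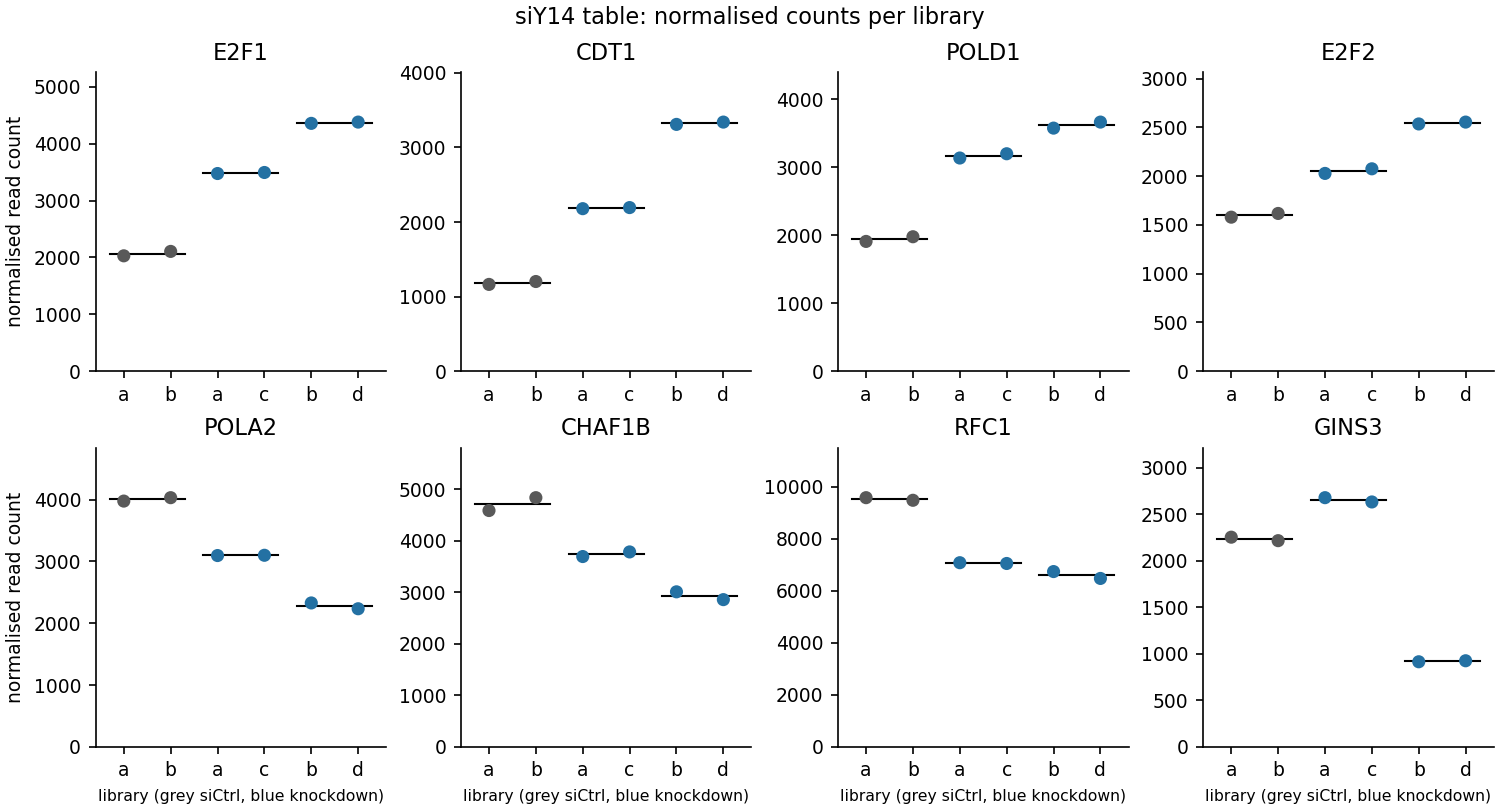
Normalised read count (y axis, from 0) of each library of the siY14 table for 8 genes, with siCtrl in grey and siY14 in blue, and near-identical libraries set side by side under a black line at their mean. E2F1, CDT1, POLD1 and E2F2 were above siCtrl in all siY14 libraries, POLA2, CHAF1B and RFC1 below, and GINS3 was above in a and c and below in b and d.

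Both siY14 pairs lay on the same side of both siCtrl libraries for 23 of the 38 recovered genes (60.5%), with 12 higher and 11 lower, against 72.6% of 6767 recovered genes whose mean reached 1000. The siCtrl mean lay between the pairs for 10 of 38 (26.3%, against 19.5%). The pairs were 1.5-fold or more apart for 5 of 38 (13.2%), against 10.1% of those 6767 genes, so members were apart about as often as other genes. These 5 were GINS3 (2.89-fold), CCNE2 (2.11-fold), CDC6 (1.63-fold), CDT1 (1.52-fold) and POLD2 (1.505-fold). The b and d pair was lower in all of them except CDT1.

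GINS3, a subunit of the GINS complex that activates the helicase, showed the widest gap. It had 2255 and 2217 counts in siCtrl, 2680 and 2634 in siY14 a and c, and 915 and 926 in b and d. On the log2 scale that is 0.25 against siCtrl for a and c and −1.28 for b and d. In the authors' deposited table both pairs are averaged, which gives −0.32 (adjusted p = 0.865). GINS4 held 2815 and 2913 in b and d, below the 3771 and 3900 of siCtrl, whereas a and c were at 3869 and 3877. GINS1, GINS2, MCM10 and CDC45 had deposited log2 ratios between −0.18 and 0.17, and none of the 6 helicase activation genes passed.

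UNG, which removes uracil from new DNA, was split the other way. Its b and d libraries had 6727 and 6626 counts and its a and c libraries 4728 and 4750, on either side of the 5479 and 5402 of siCtrl. The deposited log2 ratio of 0.07 (authors' adjusted p = 0.992) averages over that split.

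**Figure D3:**
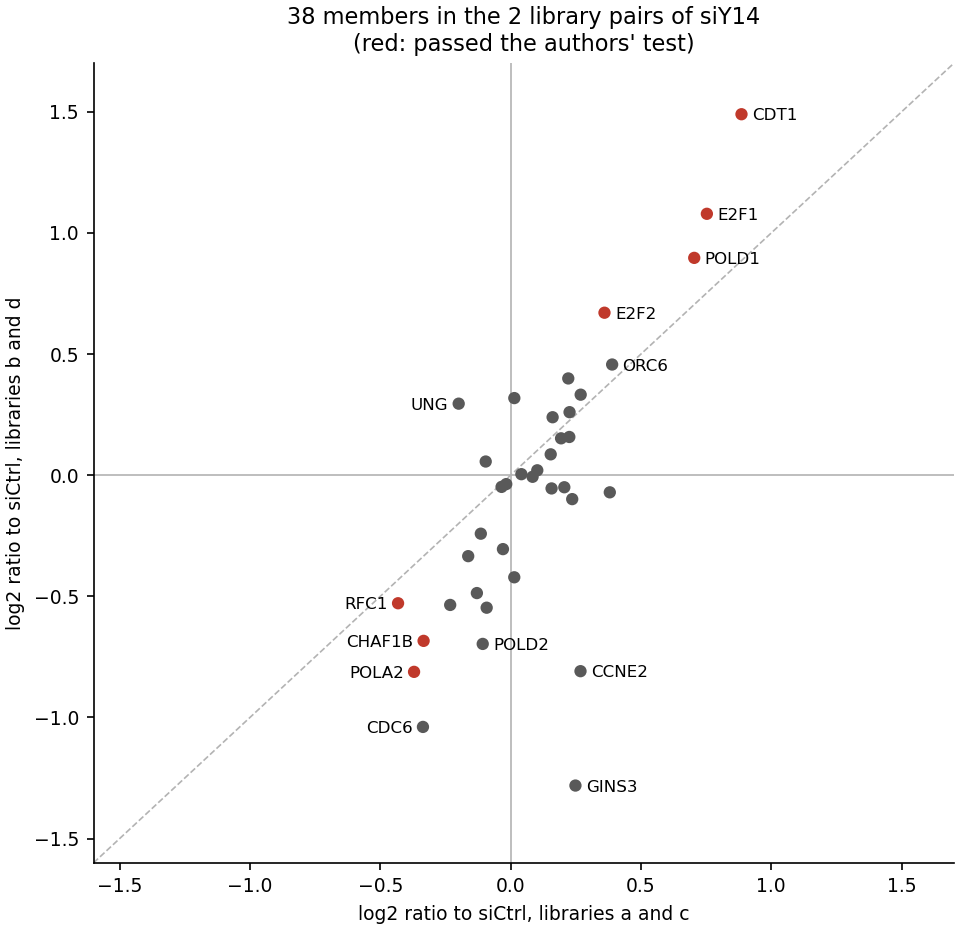
Log2 ratio to the siCtrl mean in siY14 libraries a and c (x axis) and b and d (y axis) for the 38 genes with recovered reads; red points passed the authors' test and the dashed line marks equal ratios. The red genes fall in the upper right or lower left, while GINS3 and CCNE2 lie in the lower right, above siCtrl in one pair and below it in the other.

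RRM2 was the gene that passed after SOX9 knockdown. It encodes the small subunit of ribonucleotide reductase, which makes deoxyribonucleotides and limits their supply outside S phase. Its siCtrl libraries were at 26596, 25035 and 26236 normalised counts (25956 ± 817, SD, n = 3). The authors' deposited table gives a siSOX9 mean of 41632, a log2 ratio of 0.68 and an adjusted p of 0.00933. The siSOX9 reads of RRM2 were not recovered, so its spread in that arm is not known. RRM1, the large subunit, had a log2 ratio of 0.21 there (adjusted p = 1). TYMS, TK1, DUT and UNG had 0.08, 0.03, −0.13 and −0.14, and none of them passed. RRM2 has 3 annotated pseudogenes, and the sources used here do not say how reads shared between copies were counted.

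RFC2, a small subunit of the clamp loader, was the next by p in that table. It had 3700, 3967 and 3932 counts in siCtrl (3866 ± 145, SD, n = 3) and 2879, 3209, 3294 and 3137 in siSOX9 (3130 ± 179, SD, n = 4). The arms did not overlap. It did not pass the authors' test (log2 ratio −0.30, adjusted p = 0.546), but it was the only one of the 31 recovered members to pass limma-voom (log2 ratio −0.32, SE 0.07, adjusted p = 0.0134). That is 3.23% of 31, against 18.0% of 11039 genes in that fit. RFC4 and RFC5 had deposited log2 ratios of 0.19 and 0.19, RFC1 of 0.17, RFC3 of 0.08 and PCNA of 0.01.

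CCNE1 had the largest ratio of the G1/S regulators after SOX9 knockdown. It was at 1606, 1727 and 1775 in siCtrl (1703 ± 86.9, SD, n = 3) and at 1842, 2041, 2298 and 2319 in siSOX9 (2125 ± 227, SD, n = 4). All siSOX9 libraries were above siCtrl, but the gene did not pass (deposited log2 ratio 0.32, authors' adjusted p = 0.905). E2F1 overlapped between the arms, with 3146, 3763 and 3427 in siCtrl against 2998, 3467, 3346 and 3096 in siSOX9. CDT1 overlapped too, with 2913, 3361 and 3348 against 2345, 3187, 2792 and 2748.

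POLA1 had the lowest ratio of the polymerase genes in that table. Its counts were 3227, 2671 and 2680 in siCtrl and 2700, 2173, 2302 and 2205 in siSOX9, where library a was the highest of each arm. POLD1 held 4325, 4412 and 4154 in siCtrl and 3778, 4384, 4399 and 4155 in siSOX9, where library a lay below all siCtrl libraries and the other 3 within their range. CDC45, of the active helicase, had 3499, 4117 and 4193 against 3034, 3506, 3473 and 3993, and library a was the lowest of each arm. CHAF1A had 4506, 5499 and 5223 against 4692, 5626, 6403 and 5827. RPA1 had the largest ratio of its group (arm means 8687 and 10540, log2 ratio 0.28, adjusted p = 0.813 in the authors' deposited table). The MCM2 to MCM7 genes had deposited log2 ratios between −0.19 and 0.03.

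The arms did not overlap for 5 of the 31 recovered members (16.1%), against 29.0% of 5498 recovered genes whose mean reached 1000. These were RFC2, lower, and RFC4, RPA2, MCM10 and CCNE1, higher. In siCtrl, library a, the deepest, was 1.25-fold or more from the mean of b and c for 12 of the 52 genes (23.1%), against 26.3% of 7914 recovered genes of like abundance. It was higher in 10 of them, among which RPA3 was at 1.80-fold, DUT at 1.65-fold and MCM6 and GINS1 at 1.44-fold. CHAF1B (0.672-fold) and POLD2 (0.71-fold) were lower. For the 6 of these genes recovered in siSOX9, library a lay on the same side there.

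With the depth class of the libraries as a term, limma-voom called 17 of 31 members, 10 higher and 7 lower (54.8%, against 50.8% of 11039 genes). Without both deepest libraries it called 9 (29.0%, against 32.5%), 4 higher and 5 lower. Under the depth term CCNE1 had a log2 ratio of 0.26 (adjusted p = 0.000136), E2F3 of 0.21 and CCNE2 of 0.24, while RFC2 had −0.33, POLA1 −0.26, CDT1 −0.25 and CDC45 −0.20. All of these changes were small, and the members passed about as often as other genes. The depth class was set after the libraries had been seen, and the sources used here do not tell whether the deepest libraries are the 2 samples of experiment 2. Depth and experiment cannot be told apart here.

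**Figure D4:**
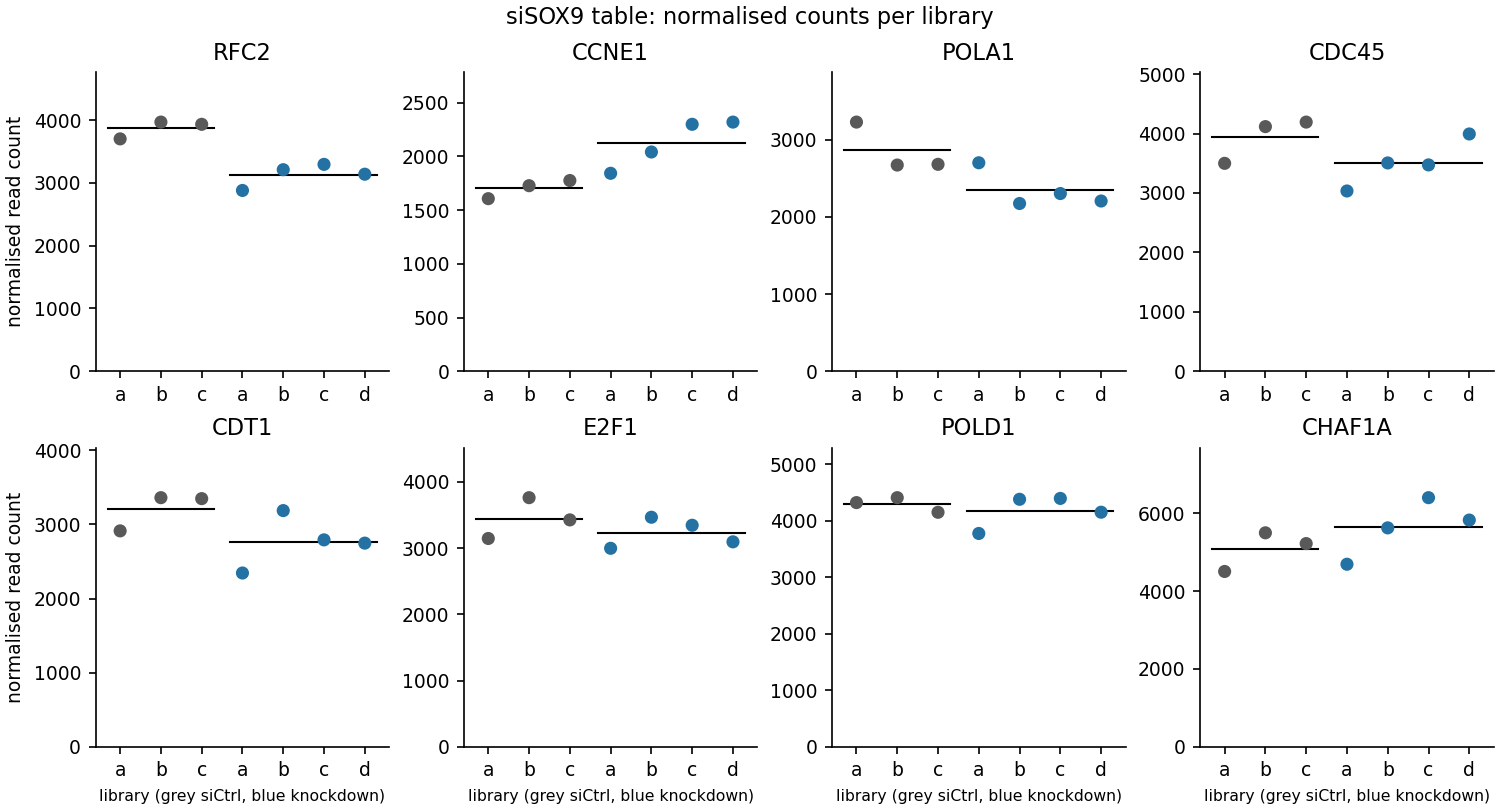
Normalised read count (y axis, from 0) of each library of the siSOX9 table for 8 genes, with siCtrl in grey, siSOX9 in blue and black lines at the arm means. RFC2 and CCNE1 do not overlap between arms, the other 6 genes do, and library a is the lowest or highest of its arm in several of them.

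The knockdowns were set against each other in a joint limma-voom model, each against its own siCtrl, with near-identical libraries summed. It called 3 of the 31 members recovered in all arms (9.68%), against 5.73% of 10811 genes, and all 3 were higher in siY14 relative to siSOX9. CDT1 differed by a log2 ratio of 1.42 (SE 0.31, adjusted p = 0.0275), E2F1 by 1.00 (SE 0.21, adjusted p = 0.0227) and POLD1 by 0.88 (SE 0.17, adjusted p = 0.019). The model lends the spread of the siSOX9 table to the single siCtrl sample of experiment 3. The fit was also run without the deepest library of each arm. In experiment 3 that leaves libraries near-identical to those dropped, so it tests little on the siY14 side.

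The siCtrl levels of these 3 genes stood apart between the tables, which were normalised separately. CDT1 had a siCtrl mean of 3207 beside siSOX9 and of 1184 beside siY14, where siY14 reached 2756. E2F1 had 3445 in the former and 2068 in the latter, with 3926 in siY14. POLD1 had 4297 and 1943, with 3393 in siY14. The part of this in the differences was not tested. Across all 52 genes the log2 ratios of both tables, which share no samples, had a Pearson r of −0.149 and a Spearman rho of −0.0497, and 26 of 52 had the same sign. The genes are not independent of one another.

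Genes close to the 52 were counted from lists of the same pathway. After SOX9 knockdown none of the 33 measured other origin and fork genes, 17 S phase checkpoint genes, 22 other nucleotide supply genes, 14 other chromatin replication genes or 28 G2/M genes passed. Of 30 measured other G1/S regulators, CCND2 rose and CDK4 fell. Each is 3.33% of that list, against 1.19% higher and 2.27% lower among all genes with reads. CCND2, a D-type cyclin, went from 41.6 to 221 in the authors' deposited table (log2 ratio 2.41, adjusted p = 1.3e-15). CDK4, the kinase that D-type cyclins activate, went from 13685 to 6194 (log2 ratio −1.14, adjusted p = 0.00117).

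After Y14 knockdown the G2/M genes held the most calls of these lists, with 8 of 28 lower (28.6%) and 0 higher and a median log2 ratio of −0.37. Among the 8106 genes whose mean reached 1000, 7.74% were lower, and the median was −0.03. In the authors' deposited table KIF11, the spindle motor, went from 14029 to 6718 (log2 ratio −1.06), CENPE, a kinetochore motor, from 3563 to 1844 (−0.95), and PRC1, which bundles midzone microtubules, from 12785 to 7620 (−0.75). KIF23, BUB1, NUF2, ANLN and TOP2A were the other 5, at −0.72, −0.70, −0.51, −0.48 and −0.48. TOP2A also stands in the list of fork genes.

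The checkpoint list had 3 of 17 lower (17.6%, against the same 7.74%). ATR, the kinase that senses stalled forks, went from 5568 to 2346 in the authors' deposited table (log2 ratio −1.25, adjusted p = 4.4e-08). FANCD2 and FANCI, partners in crosslink repair, had −0.76 and −0.69. Of 33 measured other origin and fork genes 2 were higher (6.06%, RNASEH2C at 1.03 and CHTF18 at 0.78). The share higher among all genes with reads was 3.81%. In the list of fork genes 3 were lower (9.09%, WDHD1 at −0.73, MTBP at −0.58 and TOP2A), near the 7.74% given above. RBL2 and RB1, pocket proteins that hold E2F in check, were lower in the authors' deposited table (log2 ratios −0.71 and −0.55, adjusted p = 0.00277 and 0.0176). No other of the 30 measured G1/S regulators passed. These 2 are 6.67% of that list, no more than the 7.74% lower among genes whose mean reached 1000. Their part in the E2F1 and E2F2 levels was not tested. TONSL and CASP8AP2, both of replication-coupled chromatin work, were higher, at 0.77 and 0.52. They are 14.3% of 14 measured chromatin replication genes, and 0 were lower. Higher calls made up 3.81% of all genes with reads. Calls in both directions made up 13.2% of genes whose mean reached 1000. These calls come from the same test on 4 and 2 libraries as those of the members.

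Levels could be shared with neighbouring genes. In the GENCODE v29 annotation 21 of the 52 genes have an exon that overlaps one of another gene. RRM2, POLD1, POLA2, CHAF1B and FEN1 are among those overlapped on the same strand. GINS3, RPA1 and CHAF1A are among those overlapped on the opposite strand only. Of the 52, 11 have pseudogenes of their name, among them RRM2 and FEN1. The libraries were stranded per the labels' protocols, but the sources used here do not say if counting used the strand.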

How the data were processed

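Polyadenylated RNA of 13 DLD-1 samples was sequenced from stranded libraries, per the labels' protocols. The submitters' processing notes name HISAT2, TopHat2, Bowtie, HTSeq, SAMtools and DESeq, and the build hg19, in versions and settings not given in the sources used here. Per the file headers, the authors deposited in each of 2 tables a signal (read counts divided by a size factor, averaged per arm), the ratio of these means as a fold change, also on the log2 scale, and a p-value before and after adjustment. The main test was the authors' adjusted p, under 0.05. The log2 ratios carry no pseudocount. The number of columns with per-sample values left unused was 0.

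The arm means carry many digits, and the whole reads of each library were worked out from them. The set of reads taken gives the printed mean and holds at least 0.95 of the weight of all such sets. The weight favoured the pattern of spread between libraries seen in genes of the same arm with a single solution. For abundant genes, the closeness of near-identical libraries may be partly set by that weight. Standard deviations of abundant genes may therefore be too small. Sets were sought up to a mean of 12000 in arms of 4 libraries. The search was tested on simulated data, as was the linear model. Recovered reads were fitted, where the mean was at least 10, with limma 3.58.1 (voom, Benjamini-Hochberg adjustment, R 4.3.3), with the authors' size factors. Motif searches and counts used Python 3.11.15. All 52 genes have means above 1000, so their counting error is small.

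The members and gene lists were chosen with earlier results of these data known. Values per arm are given for each member that passed in either table, for the member of each role with the largest ratio in each table, and for members that passed the difference between the knockdowns. Other members are given to account for the set, and GINS3, CCNE2, CDC6, POLD2 and UNG were singled out per library after their values were seen. Alternatives were an adjusted p of 0.1, adjustment over genes whose mean reached 10, pseudocounts of 1 and 10, centring on all genes, TMM and RLE factors, and leaving out each library. Summing near-identical libraries, leaving out both deepest libraries and a depth term were added after seeing the data.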

Additional observations from a re-analysis of the deposited data

Results flagged for a closer look

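Of 31 groups of 4 siSOX9 libraries tested, 3 had a library far from the other 3, and chance flags about 1 in 20 groups. In each it was library a, the deepest, and it was the highest. The gap to the nearest library was 0.87 of the range for PRIM2, 0.863 for RPA3 and 0.836 for UNG. PRIM2 had 1479 normalised counts in that library and 959 to 1026 in the others, and RPA3 had 2278 against 1166 to 1318. The siCtrl library a was the highest of its arm for these 3 genes as well.

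CDT1, E2F1 and POLD1 were flagged for the difference between the knockdowns in the joint limma-voom model. After summing, that model held a single siCtrl sample of experiment 3. The log2 difference, siY14 minus siSOX9, was 1.42 for CDT1, 0.999 for E2F1 and 0.877 for POLD1. The siY14 libraries were all above their siCtrl for these genes, while the siSOX9 libraries overlapped theirs. Their siCtrl means beside siSOX9 and beside siY14 were 3207 and 1184 for CDT1, 3445 and 2068 for E2F1, and 4297 and 1943 for POLD1. What part these levels had in the differences was not tested.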

How the results depend on the processing

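The count of 1 member after SOX9 knockdown in the authors' test stayed at 1 with an adjusted p of 0.1 and with adjustment over genes whose mean reached 10. Limma-voom also called 1, RFC2, but of the 31 recovered members, which do not include RRM2. That count ranged from 1 to 3 when each library was left out, the 3 without siSOX9 library a (2532 calls of 11039 genes, from 1983), and was 9 without both deepest libraries and 17 with a depth term. After Y14 knockdown the authors' count of 8 of 52 members became 9 at 0.1. Limma-voom called 14 of the 38 recovered members, which do not include TK1 (36.8%, against 25.9% of 12098 genes). That 14 ranged from 0 to 13 when each library was left out (0 without siCtrl a or b, 6 without siY14 b or d), and the calls over 12098 genes went from 3132 to 1 without either siCtrl library, 1474 without siY14 b and 1430 without d. It was 0 with near-identical libraries summed. With all libraries taken apart, the difference between the knockdowns was called for 5 of 31 members (16.1%), against 22.1% of 10528 genes. Centring on all genes took the members' median log2 ratio from 0.0257 to 0.0128 after SOX9 and from 0.0469 to 0.0482 after Y14 knockdown, and the SD of the recovered members' median between the knockdown libraries was 0.0139 and 0.0767. Of 364 alternative values of single genes, 0 reversed a call, 27 lost it and 31 gained it. Pseudocounts and centring kept the deposited adjusted p, so no call could change in those values. For RRM2 and TK1 they were the only alternatives. No paired analysis was possible because the deposited columns carry no replicate numbers. The depth term was set from the libraries' depths and is no pairing from the labels. Counting error is small at these depths, and the number of distinct samples limits the precision.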
